A study of Mus musculus with 30 samples.

Results

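The levels of 7 genes of the leukaemia inhibitory factor (LIF) and STAT3 pathway were followed across 30 bulk RNA-seq libraries of mouse embryonic stem cells (mESCs). The genes were Lifr, Il6st, Stat3, Socs3, Pim1, Pim3 and Gbx2, found among the 55421 genes of the count table by matching Ensembl identifiers to GENCODE M21, and all 7 were found and passed the filter on low counts. The study asked whether losing all or a segment of 1 X chromosome raises expression from the remaining copy. All 7 genes are autosomal, so every line has the same intended copy number of each.

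The cells were female 129/Sv x Cast/Ei hybrid mESCs, which carry a 129 and a Cast allele of each autosomal gene. XX Wildtype cells carry no engineered allele, and XX Rnf12 cells are heterozygous for a deletion in the X-linked gene Rnf12 (Rnf12+/-, gene symbol Rlim). The 13 deletion lines (A, B, AB, C, C-G, D, E, F, H, I, I-TEL, J and K) each carry Rnf12+/- plus a heterozygous deletion of an X segment, and the neomycin cassette used to select them was left in place. Deletions J and I-TEL were made in a second, independently made Rnf12+/- founder. XCastO129 cells kept only the Cast X and X129OCast cells only the 129 X. These XO lines were clones that lost a whole X during the same CRISPR-Cas9 targeting. The study places the Rnf12 deletion on the 129 X, so XCastO129 would keep an intact copy and X129OCast only the deleted one. The labels do not state this, and the Rlim levels given below go with it. Between the XO lines, the X kept and the Rnf12 copy cannot be told apart. Each group has 2 libraries except Deletions A, B, AB and C-G, which have 1. The 2 libraries of a deletion line are independent clones, while for the XX and XO groups the labels give only a replicate number. The labels do not say whether these replicates are technical, and the study's captions call its plotted samples biological replicates from independent clones. The spread behind each p-value was estimated over 13 groups with 2 libraries, 9 of them deletion lines. It is not the spread between the XX or XO libraries alone.

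LIF is the cytokine that holds mESCs in self-renewal in serum culture. It binds LIFR, which pairs with gp130, the product of Il6st, and JAK kinases bound to the receptors then phosphorylate STAT3. Activated STAT3 enters the nucleus and drives target genes that sustain the naive state, among them the kinase genes Pim1 and Pim3, the homeobox gene Gbx2 and Socs3, whose product binds gp130 and JAK and shuts the signal down. The growth protocol in the labels gives 1000 U/mL LIF for every library, but the study's methods describe a medium with a higher LIF concentration for the Rnf12+/- line, the deletion lines and matched controls. The methods call the XO lines treatment-matched controls, but name no medium for them or for XX Wildtype. The part of the medium in the results was not tested.

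Library totals ran from 8816184 to 21181405 counts. The libraries fall into 3 sets by the prefix of their names. The XX Wildtype, XX Rnf12 and Deletion E libraries share 1 prefix (20375194 to 21181405 counts). The 4 XO libraries share another, were sequenced as single reads and held 14998265 to 16494893 counts. The 20 libraries of the other 12 deletion lines share the third (8816184 to 10680026 counts). XO genotype, name prefix and read type cannot be told apart. The 12 deletion lines and their prefix can likewise not be told apart when they are set against XX Rnf12, and comparisons among the 12 lines are free of this. As a check of the labels, Rlim was at 193 to 211 TPM (a level per exon length, scaled to a common library total) in XX Wildtype, 77.6 to 79.7 TPM in XX Rnf12, 71.2 to 77.8 TPM in XCastO129, 3.53 TPM in both X129OCast libraries and 50.4 to 144 TPM in the 22 deletion libraries. The summed level of 6 mESC markers was 4137 to 4796 TPM in the XO libraries and 4600 to 6114 TPM elsewhere, with X129OCast lowest. That of 4 primed or formative epiblast markers was 425 to 790 TPM in the XO libraries, highest in X129OCast, and 123 to 533 TPM in the deletion lines. In the XX libraries it was lower than in the XO libraries, at 204 to 212 TPM in XX Rnf12 and 279 to 299 TPM in XX Wildtype. The study's methods describe growth on fibroblast feeders, depleted by pre-plating before harvest. The 8 feeder fibroblast markers summed to 68.5 to 329.8 TPM over all libraries, with 95.5 to 213 TPM in the XO libraries, inside that range. The 6 primitive endoderm markers summed to at most 19.4 TPM and the 3 trophoblast markers to at most 21.6 TPM. In bulk samples, fewer cells of a type and less RNA per cell cannot be told apart.

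The 7 genes spanned a wide range of levels. Averaged over the 30 libraries, Pim3 was highest at 355 TPM, followed by Pim1 at 166 TPM, Socs3 at 96.2 TPM, Stat3 at 42.4 TPM, Il6st at 42.0 TPM, Lifr at 20.4 TPM and Gbx2 at 13.4 TPM. Pim3 stood above 97.3% of the 16984 genes with a mean over 1 TPM and Gbx2 above 48.3%. Stat3 and Il6st had no fixed order from library to library, and their ranges over the 30 libraries (26.5 to 64.1 and 34.3 to 57.3 TPM) overlap. The lowest count behind any member value was 19, for Gbx2 in the 1 library of Deletion A, so Gbx2 carries the largest counting error. Relative to its level Il6st varied least, with a highest to lowest ratio of 1.67, and Gbx2 most, with a ratio of 13.8.

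**Figure D1:**
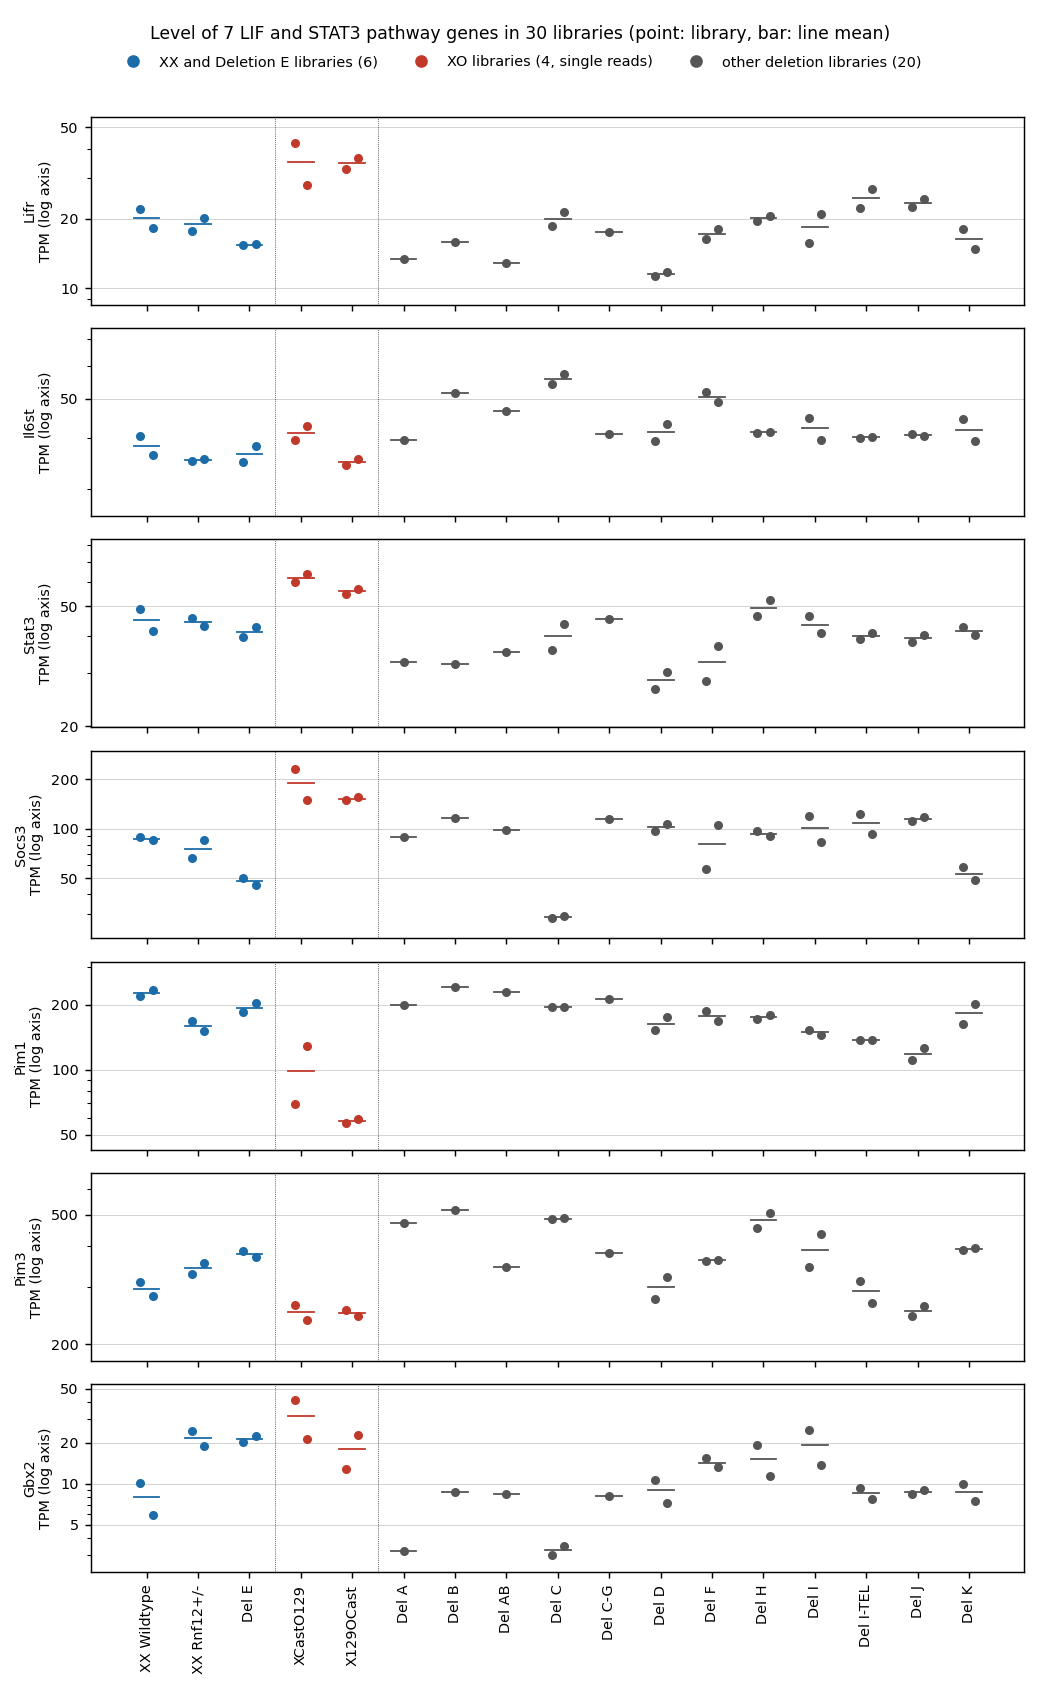
Level of each of the 7 genes in each of the 30 libraries, in TPM on a log axis. Points are libraries, bars are line means, and colours mark the 3 sets of library names. In the XO libraries Lifr, Stat3 and Socs3 lie above all other libraries, and in both Deletion C libraries Socs3 lies below all others.

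Before the values, the promoter windows were searched for the palindrome TTCNNNGAA, the core that STAT factors bind, because the genes include both STAT3 targets and the receptor genes upstream of it. A window runs from 250 bases before to 50 bases after an annotated start (RefSeq sequences, GRCm38.p6), and the motif reads the same on both strands. Of the 9 windows of the 7 genes, 1 held the motif, that of Socs3. Over all 32851 windows 8.30% held it. Of 41 other pathway genes, 34 had a window and 3 held the motif (Gab1, Cish and Icam1). The matches in Socs3, in Cish, which encodes another SOCS-family inhibitor, and in Icam1, an adhesion gene, are shown with 10 bases on each side and the motif in capitals.
Socs3, chr11:117969502-117969530, minus strand: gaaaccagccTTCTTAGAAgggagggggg
Cish, chr9:107296649-107296677, plus strand: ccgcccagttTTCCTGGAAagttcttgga
Icam1, chr9:21015888-21015916, plus strand: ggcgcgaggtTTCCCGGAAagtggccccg
The Socs3 motif begins 154 bases before the start and the Icam1 motif 42 bases before it, while the Cish motif begins at its first transcribed base. A second motif in the Cish window, TTCTTGGAA, begins 11 bases downstream of the first one. These are matches of letters, not shown binding sites, and a window without a match says nothing of sites elsewhere.

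The number of members that passed the test differed between comparisons, and so did the share of all genes that did. A call here is an adjusted p under 0.05 by edgeR's quasi-likelihood test fitted on all 30 libraries, with Benjamini-Hochberg adjustment over the 18316 genes tested. In XX Wildtype against XX Rnf12 1 of the 7 was called (2.75% of all genes were). In XCastO129 against XX Rnf12 it was 6 of 7 (34.7% of all genes) and in X129OCast against XX Rnf12 5 of 7 (45.1% of all genes). Between the XO lines, 1 of 7 differed (5.83% of all genes). In Deletion E, the deletion line that shares a name prefix with the reference, none of the 7 was called (0.584% of all genes). Over the 12 other deletion lines, 22 of 84 pairs of a member and a line were called against XX Rnf12 (15.5% of all gene and line pairs) and 17 of 84 against the mean of the other 11 lines (8.44%). The 22 were 8 higher and 14 lower (7.12% and 8.33% of all pairs), and the 17 were 8 higher and 9 lower (4.7% and 3.73%). Of the 22, 7 are in Deletions A, B and AB, which have 1 library each, so their p-values assume that this library varies like those of the other groups. All 7 differed among the 12 lines in a single F test (44.9% of all genes did). With either clone of each 2-clone line left out, 5 or 6 of the 84 pairs against the other lines and 1 or 3 of the 7 in the F test remained past the threshold, and without XX Rnf12 replicate 1 the pairs against the reference were 10.

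**Figure D2:**
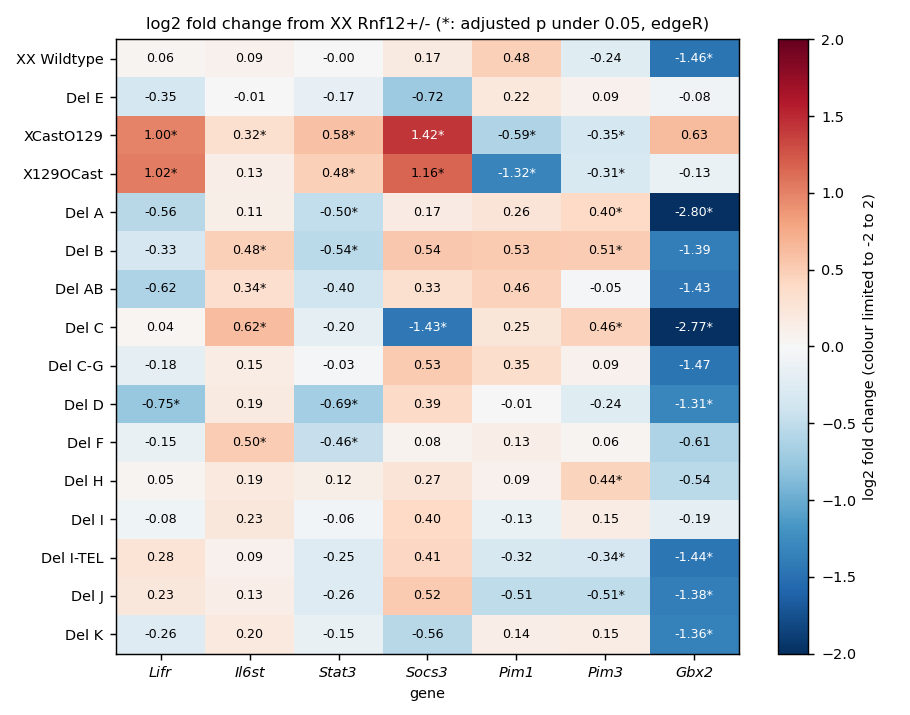
log2 fold change of each gene in each line from XX Rnf12, written in the cells and coloured from blue (lower) to red (higher), with an asterisk for an adjusted p under 0.05. The XO rows are high for Lifr, Stat3 and Socs3 and low for Pim1 and Pim3. The column of Gbx2 is below 0 in all 12 deletion lines other than E, which share a name prefix.

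The receptor genes came first. Lifr, on chromosome 15 (7090614 to 7197489, mm10, plus strand), encodes the LIF-binding receptor chain, and its RNA was about 2-fold higher in both XO lines than in XX Rnf12. It was at 42.5 and 28.1 TPM in XCastO129, 32.7 and 36.8 TPM in X129OCast, 17.7 and 20.1 TPM in XX Rnf12 and 22.0 and 18.2 TPM in XX Wildtype. All 4 XO libraries lay above all 26 other libraries, whose highest was 26.8 TPM. The log2 difference from XX Rnf12 was 1.00 ± 0.16 (SE) in XCastO129 (adjusted p = 7.603e-05, edgeR) and 1.02 ± 0.16 in X129OCast (adjusted p = 3.714e-05, edgeR). The XO lines were not called different from each other (log2 difference 0.02 ± 0.16, adjusted p = 0.95, edgeR). The direction was the same with XX Wildtype as the reference.

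Among the deletion lines the level of Lifr was lowest in Deletion D and highest in the lines of the second founder. Deletion D had 11.3 and 11.8 TPM, a fall of 0.75 ± 0.17 on the log2 scale from XX Rnf12 (adjusted p = 0.0029, edgeR) and of 0.61 ± 0.13 from the other 11 lines (adjusted p = 0.0069, edgeR). Against XX Rnf12, 23.9% of all genes were called in this line. The call against the other lines was lost when either Deletion D clone was left out. Deletion I-TEL had 22.3 and 26.8 TPM and Deletion J 22.4 and 24.2 TPM, against a mean of 16.3 TPM over the 10 lines of the first founder in this set. Together they were higher by a log2 difference of 0.53 ± 0.091 (adjusted p = 0.000153, edgeR), a call lost with clone 2 of every 2-clone line left out. This contrast called 5 of the 7 members (31.5% of all genes), and founder and deleted segment cannot be told apart in it.

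Il6st, on chromosome 13 (112464070 to 112510086, plus strand), encodes gp130, the signalling chain shared by the receptors of the IL-6 family. It was the steadiest of the 7 genes. It was at 39.4 and 42.7 TPM in XCastO129, 34.3 and 35.4 TPM in X129OCast, 35.0 and 35.6 TPM in XX Rnf12 and 40.3 and 36.3 TPM in XX Wildtype. XCastO129 was called higher than XX Rnf12 by a log2 difference of 0.32 ± 0.089 (adjusted p = 0.0092, edgeR). That call was lost against XX Wildtype, without XCastO129 replicate 2, with only these groups in the fit and without the filter on low counts. X129OCast was at 0.13 ± 0.089 (adjusted p = 0.26, edgeR), and its mean TPM, 34.9, was below the 35.3 TPM of XX Rnf12. The median gene was lower by 0.15 on the log2 TPM scale than on the scale of the fit in that comparison and by 0.098 in XCastO129, so small differences turn sign with the scale.

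In the deletion lines, Il6st was above XX Rnf12 in all 12 lines other than E, by log2 differences of 0.086 to 0.62, and was called higher in 4 of them (B, AB, C and F). Deletion C was highest, at 54.4 and 57.3 TPM, with a log2 difference of 0.62 ± 0.089 from XX Rnf12 (adjusted p = 5.341e-05, edgeR) and 0.39 ± 0.065 from the other 11 lines (adjusted p = 0.000143, edgeR). Deletion F, at 52.0 and 49.1 TPM, was also higher than the other lines, by 0.26 ± 0.066 (adjusted p = 0.036, edgeR), a call lost without either of its clones. The Deletion AB call (1 clone, adjusted p = 0.046, edgeR) was lost under 7 of its 11 alternatives. Lines J and I-TEL were slightly lower than the 10 lines of the first founder, by a log2 difference of -0.19 ± 0.052 (adjusted p = 0.0073, edgeR), a call lost with either clone of the 2-clone lines left out.

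Stat3, on chromosome 11 (100885098 to 100939540, minus strand), encodes the transcription factor that carries the LIF signal to the nucleus. Its RNA was higher in the XO lines and lower in 4 deletion lines than in XX Rnf12. It was at 60.01 and 64.1 TPM in XCastO129, 55.0 and 57.2 TPM in X129OCast, 45.8 and 43.0 TPM in XX Rnf12 and 48.8 and 41.3 TPM in XX Wildtype. The 4 XO libraries again lay above all 26 others, whose highest was 52.4 TPM in Deletion H clone 2. The log2 difference was 0.58 ± 0.12 in XCastO129 (adjusted p = 0.00067, edgeR) and 0.48 ± 0.12 in X129OCast (adjusted p = 0.0022, edgeR). Both calls held under every alternative run.

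Deletion D had the lowest Stat3, at 26.5 and 30.3 TPM, a fall of 0.69 ± 0.12 on the log2 scale from XX Rnf12 (adjusted p = 0.00042, edgeR) and of 0.44 ± 0.093 from the other 11 lines (adjusted p = 0.0059, edgeR). The call against the other lines was lost without Deletion D clone 1. Deletions A (32.6 TPM, 1 clone), B (32.1 TPM, 1 clone) and F (28.3 and 37.0 TPM) were also called lower than XX Rnf12, each call being lost without XX Rnf12 replicate 1. Deletion H, at 46.5 and 52.4 TPM, was higher than the other lines by a log2 difference of 0.44 ± 0.086 (adjusted p = 0.0054, edgeR), a call lost without its clone 2. In 11 of the 12 lines Stat3 lay below XX Rnf12. Its shift in these lines therefore ran opposite to that in the XO lines, and lines and name prefix move together here.

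Socs3, on chromosome 11 (117966079 to 117970047, minus strand), encodes the feedback inhibitor of the receptor complex and showed the largest XO difference of the genes called higher. It was at 230.3 and 149 TPM in XCastO129, 149 and 156 TPM in X129OCast, 65.8 and 85.5 TPM in XX Rnf12 and 88.6 and 85.1 TPM in XX Wildtype. The lowest XO library, at 149 TPM, lay above the highest of the other 26, at 123 TPM in Deletion I-TEL clone 1. The log2 difference from XX Rnf12 was 1.42 ± 0.23 in XCastO129, a 2.68-fold higher level (adjusted p = 8.464e-05, edgeR), and 1.16 ± 0.23 in X129OCast, a 2.23-fold higher level (adjusted p = 0.00042, edgeR). Lifr, Stat3 and Socs3 were thus 3 of 7 members with no overlap between the XO libraries and all others in the upward direction (5.04% of all genes tested had this pattern), and no member lay wholly below (9.04% of all genes did).

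The other end of the range was Deletion C, where Socs3 was at 28.6 and 29.3 TPM (253 counts in the lower library), below all 28 other libraries, as were 4.31% of all genes in these clones. The next lowest were Deletion E, at 50.3 and 45.2 TPM, and Deletion K, at 58.1 and 48.3 TPM. In Deletion C Socs3 fell by 1.43 ± 0.25 on the log2 scale from XX Rnf12 (adjusted p = 0.000295, edgeR) and by 1.71 ± 0.21 from the other 11 lines (adjusted p = 4.907e-06, edgeR), the largest drop of any member in that comparison, and both calls held in every alternative run. Deletion C is also a line in which many genes moved (30.9% of all genes were called against the other 11). Deletion E was at a log2 difference of -0.72 ± 0.23 from XX Rnf12, not past the threshold (adjusted p = 0.21, edgeR), and Deletion K at -0.76 from the other lines, also without a call. Clones disagreed most for Deletion F, at 56.8 and 105 TPM.

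The allele counts separate the contributions of the 129 and Cast copies of Socs3 in Deletion C. Only reads over a strain difference can be assigned, which left 100 of them for Socs3 over both Deletion C clones, of which 48.0% came from Cast (95% Wilson interval 38.5 to 57.7%, which covers counting error only). In CPM (assigned reads relative to all counts of the library), the 129 copy was at 2.87 and 2.09 and the Cast copy at 2.01 and 2.56, while in XX Rnf12 the 129 copy was at 5.72 and 6.52 and the Cast copy at 6.30 and 8.43. Both copies were therefore below their levels in XX Rnf12.

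**Figure D3:**
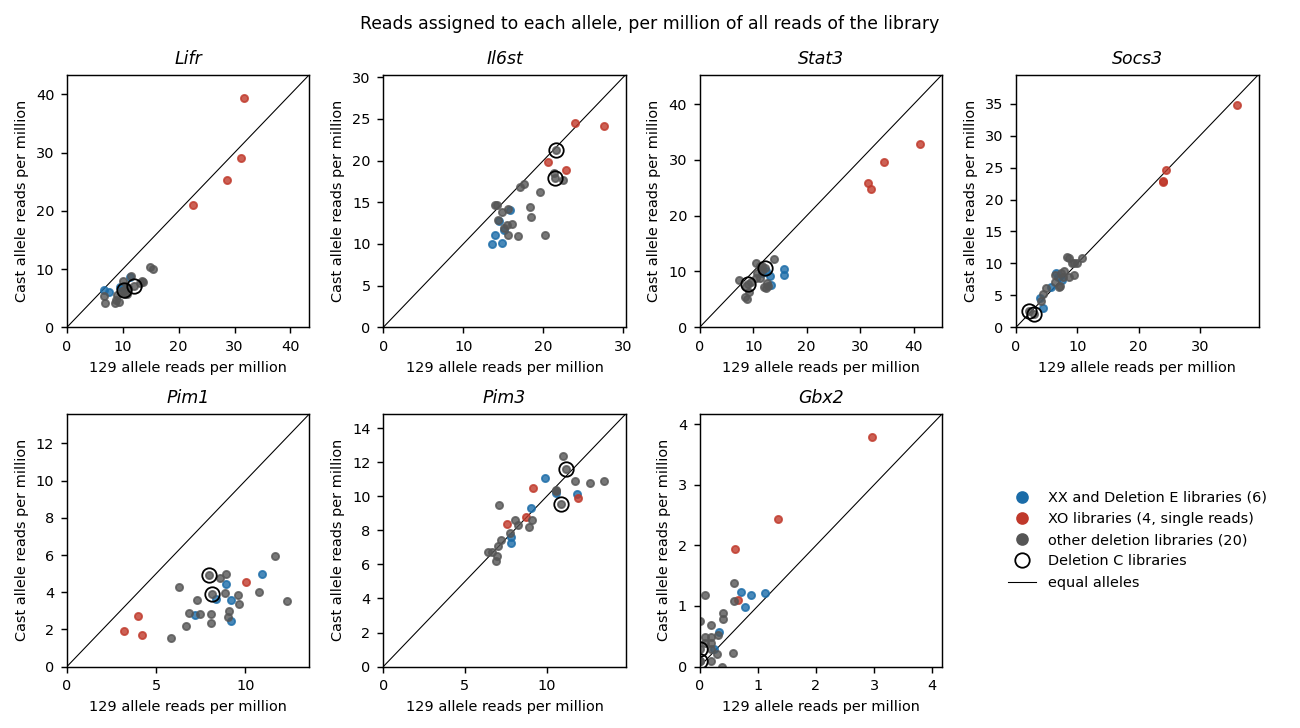
Reads assigned to the 129 allele (x axis) and to the Cast allele (y axis) of each gene, in CPM relative to all counts of the library, with a point for each library, with the line of equal alleles. Pim1 lies below the line in all 30 libraries, and the Deletion C libraries (circled) lie near the line and near the origin for Socs3. The XO libraries were single reads with 21.92 to 22.03% of counts assigned to an allele, against 12.18 to 12.65% elsewhere, so their distance from the origin is not comparable with that of the others.

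The target kinase genes ran the other way. Pim1, on chromosome 17 (29490753 to 29496112, plus strand), encodes a serine/threonine kinase that is induced by STAT3 and promotes survival. It was at 69.8 and 129 TPM in XCastO129, 57.0 and 59.1 TPM in X129OCast, 169 and 152 TPM in XX Rnf12 and 220.1 and 235 TPM in XX Wildtype. The XO libraries overlapped the others, as XCastO129 replicate 2 lay within the range of the deletion lines, above both Deletion J clones at 111 and 127 TPM. Pim1 fell by 0.59 ± 0.17 on the log2 scale in XCastO129 (adjusted p = 0.011, edgeR) and by 1.32 ± 0.17 in X129OCast (adjusted p = 5.27e-06, edgeR). The first of these calls was lost without XCastO129 replicate 1 (at -0.25), without XX Rnf12 replicate 1 and in a fit of these groups alone, and the second held in every alternative run.

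Pim1 was also the single member that differed between the XO lines, lower in X129OCast than in XCastO129 by a log2 difference of -0.73 ± 0.17 (adjusted p = 0.019, edgeR). The 2 XCastO129 libraries differ by 0.88 on the log2 scale, which is more than that. Without XCastO129 replicate 2 the difference was -0.23 (adjusted p = 0.31, edgeR), and fitted on the 4 XO libraries alone it was -0.73 ± 0.26 (adjusted p = 0.25, edgeR). Among the 12 deletion lines Pim1 was lowest in the second founder's lines, at 111 and 127 TPM in Deletion J and 137 and 138 TPM in Deletion I-TEL. Together these were lower than the other 10 by -0.62 ± 0.10 (adjusted p = 9.979e-05, edgeR), a call lost with clone 1 of every 2-clone line left out. No line was called for Pim1 against XX Rnf12.

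Pim3, on chromosome 15 (88862186 to 88865726, plus strand), encodes a related kinase of the same family and was the most abundant of the 7 genes. It was at 265 and 238 TPM in XCastO129, 254 and 245 TPM in X129OCast, 329.6 and 356 TPM in XX Rnf12 and 309.9 and 281 TPM in XX Wildtype. It fell by 0.35 ± 0.10 on the log2 scale in XCastO129 (adjusted p = 0.012, edgeR) and by 0.31 ± 0.10 in X129OCast (adjusted p = 0.017, edgeR). Against XX Wildtype the differences shrank to -0.11 (adjusted p = 0.42, edgeR) and -0.072 (adjusted p = 0.59, edgeR), so neither call held with that reference. Both were also lost without XX Rnf12 replicate 2 and without replicate 2 of the XO line, and that of XCastO129 in a fit of these groups alone.

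Among the deletion lines Pim3 split into high and low lines. Deletion B (514.7 TPM, 1 clone), Deletion C (483 and 486 TPM), Deletion H (453 and 506 TPM) and Deletion A (471.5 TPM, 1 clone) were called higher than XX Rnf12, by log2 differences of 0.40 to 0.51. Without XX Rnf12 replicate 1 the calls of A, B and H were lost, that of H also without its clone 2, and that of C held in every alternative run. Deletion J, at 244.5 and 262 TPM, and Deletion I-TEL, at 313 and 268 TPM, were called lower, by -0.51 and -0.34, the second of which was lost when either XX Rnf12 library was left out. Taken against the 10 lines of the first founder, J and I-TEL were lower by -0.62 ± 0.061 (adjusted p = 2.465e-07, edgeR), with means of 272 against 412 TPM, and this call held in every alternative run. Deletion D, at 276 and 322 TPM, overlapped them and was also lower than the other 11 lines, by -0.36 ± 0.080 (adjusted p = 0.0069, edgeR), a call lost without its clone 1.

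**Figure D4:**
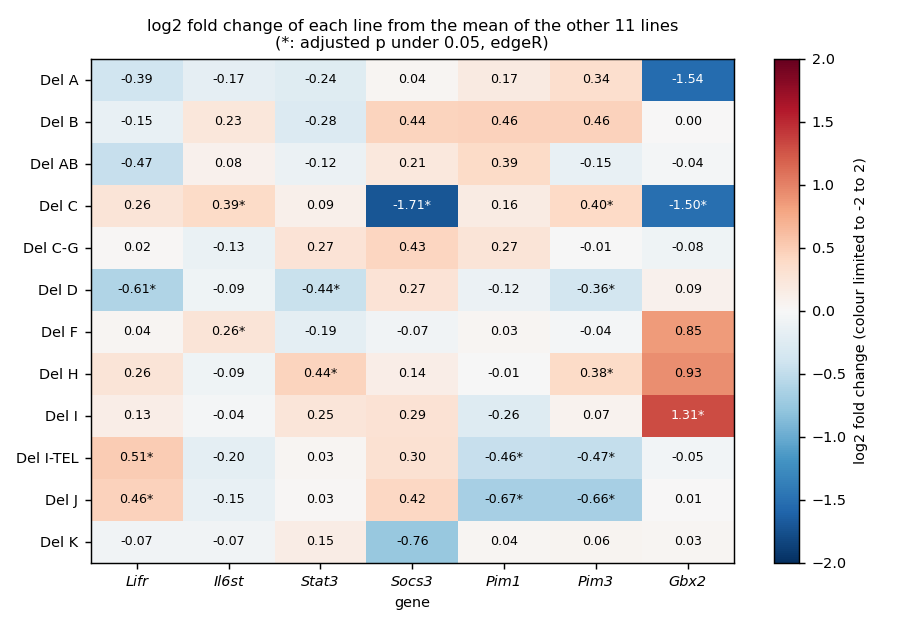
log2 fold change of each gene in each of the 12 deletion lines from the mean of the other 11, all within 1 library name prefix, with an asterisk for an adjusted p under 0.05. Deletion C has the lowest value for Socs3 (-1.71), Deletions A and C have the lowest for Gbx2, Deletions I-TEL and J show higher Lifr with lower Pim1 and Pim3, and Deletion D shows lower Lifr, Stat3 and Pim3.

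Gbx2, on chromosome 1 (89927956 to 89931179, minus strand), encodes a homeobox factor that is a STAT3 target in mESCs. It was the most variable of the 7 genes and the only one called between the XX lines. It was at 10.1 and 5.94 TPM in XX Wildtype and at 24.3 and 18.9 TPM in XX Rnf12, lower by a log2 difference of -1.46 ± 0.36 in wild type (adjusted p = 0.028, edgeR). This call came from a fit that did not pair the XX libraries by replicate number. It was lost without XX Wildtype replicate 2, without XX Rnf12 replicate 1 and in fits on the shared name prefix or on these groups alone. The choice of reference then decides the XO result. Gbx2 was at 41.2 and 21.1 TPM in XCastO129 and 12.9 and 22.9 TPM in X129OCast. Against XX Rnf12 the log2 differences were 0.63 ± 0.34 and -0.13 ± 0.34 (adjusted p = 0.16 and 0.78, edgeR). Against XX Wildtype they were 2.09 (adjusted p = 0.000131, edgeR) and 1.33 (adjusted p = 0.0049, edgeR).

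In all 12 deletion lines other than E Gbx2 lay below XX Rnf12, with a median log2 difference of -1.38, and it was called lower in 6 (A, C, D, I-TEL, J and K). XX Wildtype, however, had a mean of 8.01 TPM. Of these 12 lines only A and C had a lower mean (3.22 and 3.25 TPM), and the others had means of 8.20 to 19.3 TPM. The low Gbx2 of the other lines thus depends on the reference, and no deletion line was tested against XX Wildtype. Without XX Rnf12 replicate 1 the calls of D, I-TEL, J and K were lost, while those of A and C against XX Rnf12 held in every alternative run, which for A did not include a fit of these groups alone. The lowest were Deletion C, at 3.00 and 3.51 TPM, and Deletion A, at 3.22 TPM in its 1 clone. Deletion C fell by 2.77 ± 0.42 on the log2 scale from XX Rnf12 (adjusted p = 8.975e-05, edgeR) and by 1.503 ± 0.37 from the other 11 lines (adjusted p = 0.0041, edgeR). The call against the other lines was lost without Deletion C clone 1 and with either clone of the 2-clone lines left out. Deletion E, with the name prefix of the reference, was at 20.2 and 22.4 TPM, against 24.3 and 18.9 TPM in XX Rnf12. Gbx2 in Deletion I, at 24.8 and 13.7 TPM, was called higher than in the other 11 lines, by a log2 difference of 1.31 ± 0.26 (adjusted p = 0.0053, edgeR). The clone with 24.8 TPM had a median level of chromosome 1 genes 0.49 above XX Rnf12 on the log2 scale and a Cast share of chromosome 1 reads of 32.0%, against 43.4 to 49.3% in the other 29 libraries. Of the Gbx2 reads of this clone, 6 were assigned to 129 and 14 to Cast. The part of the chromosome 1 level in its Gbx2 level was not tested. Without that clone the difference was 0.78 ± 0.36 (adjusted p = 0.42, edgeR). The other members' chromosomes (11, 13, 15 and 17) stayed within 0.14 of XX Rnf12 in every library.

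Among the members, the allele shares were furthest from balance for Pim1 and Gbx2. In the 26 paired-read libraries the Cast share of assigned reads was 39.9% for Lifr, 45.2% for Il6st, 42.9% for Stat3, 51.7% for Socs3 and 49.5% for Pim3, beside a median of 47.9% over 8225 genes. For Pim1 it was 29.3% (95% Wilson interval 27.9 to 30.7%), with 21.1 to 40.5% in single libraries, and only 4.49% of the genes had a lower share. In the 4 XO libraries the Pim1 share was 33.6% (29.6 to 37.8%), so the skew to 129 was present where Pim1 was low as well. For Gbx2 it was 62.3% on 350 reads (57.1 to 67.2%), and 5 of the 26 libraries had 20 or more assigned reads. Lifr was at 50.1% in the XO libraries (48.5 to 51.8%) against 39.9% (38.6 to 41.2%) in the others, and these shares come from single and paired reads respectively. In the paired-read libraries 16.1% of the genes had a lower share than Lifr and 24.7% a lower share than Stat3. The study's methods describe mapping to a genome masked at the 129 and Cast differences. Any mapping bias that remains was not tested.

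The 41 other genes of the pathway, which are ligands, receptors, kinases and adaptors, STAT factors, inhibitors, targets and the X-linked kinase gene Pim2, were all tested. In XCastO129 against XX Rnf12, 9 were called higher and 10 lower (median log2 difference -0.0062, beside -0.036 over all genes), where 34.7% of all genes were called. In X129OCast 6 were higher and 15 lower (median -0.39, beside -0.059 over all genes), where 45.1% of all genes were called. Both contrasts use the same XX Rnf12 libraries, so their values are given side by side only. Shc1, an adaptor gene, was called higher in each (log2 difference 0.84 in XCastO129 and 0.67 in X129OCast), as were Cish, Stat2, Icam1 and Pim2. Tfcp2l1, a naive pluripotency factor that LIF and STAT3 induce, fell by 0.90 ± 0.19 on the log2 scale in XCastO129 (adjusted p = 0.0011, edgeR) and by 1.399 ± 0.19 in X129OCast (adjusted p = 8.259e-06, edgeR). Klf5, another factor of the naive state, fell from 303 and 348 TPM in XX Rnf12 to 191 and 156 TPM in XCastO129 and 155 and 161 TPM in X129OCast.

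Socs2, a relative of Socs3 that restrains growth hormone signalling, did not move with it. It was at 34.0 and 26.3 TPM in XX Rnf12, 25.4 and 25.9 TPM in XCastO129 and 14.4 and 14.3 TPM in X129OCast, called lower in the last of these (log2 difference -0.93 ± 0.14, adjusted p = 2.349e-05, edgeR). Lif itself was low, at 13.2 and 5.73 TPM in XX Rnf12, and was called lower in X129OCast (log2 difference -1.28, adjusted p = 0.0026, edgeR) but not in XCastO129 (-0.59, adjusted p = 0.14, edgeR). The feeder markers summed to 313 and 97.5 TPM in these XX Rnf12 libraries and to 95.5 and 153 TPM in X129OCast. The part of feeder RNA in the Lif level was not tested. Jak1, the receptor-bound kinase, was at 21.4 and 23.5 TPM in X129OCast against 38.7 and 38.1 TPM in XX Rnf12, a fall of 0.63 on the log2 scale (adjusted p = 0.00056, edgeR). In XCastO129 Jak1 was at 35.7 and 36.0 TPM with a log2 difference of 0.0013 ± 0.13 (adjusted p = 0.99, edgeR), and the XO lines differed (-0.63 ± 0.13, adjusted p = 0.0075, edgeR). Pim2 rose in both XO lines, by 0.99 (adjusted p = 0.025, edgeR) and 1.74 (adjusted p = 0.000282, edgeR), opposite to Pim1 and Pim3. It is X-linked, and its fold change is not corrected for the single X.

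Between the XO lines, which differ in Rlim level as well as in the X kept, 4 pathway genes were called (5.83% of all genes were). All 4 were lower in X129OCast (Jak1, Gab1, Socs2 and Klf4). Gab1, an adaptor downstream of gp130, fell from a mean of 119 TPM in XCastO129 to 28.1 TPM in X129OCast (log2 difference -2.03 ± 0.25, adjusted p = 0.000141, edgeR). In XX Wildtype against XX Rnf12 1 pathway gene was called, Klf4 (2.75% of all genes were called). It was at 303 and 266 TPM in wild type and 542 and 672 TPM in XX Rnf12 (log2 difference -1.12 ± 0.14, adjusted p = 0.000269, edgeR). The XX libraries were not paired by replicate number in this fit. Klf4 in X129OCast was lower than XX Rnf12 by -1.07 but differed from XX Wildtype by 0.046 (adjusted p = 0.81, edgeR). In XCastO129 it was called lower than XX Rnf12 (log2 difference -0.57 ± 0.14, adjusted p = 0.0039, edgeR) and higher than XX Wildtype (0.55 ± 0.14, adjusted p = 0.0047, edgeR), so its direction turned with the reference. Lif, Jak1 and Pim2 were not called between the XX lines, at log2 differences of -0.18, -0.03 and 0.81. In Deletion E none of the 41 was called (0.584% of all genes were), with Lif at -0.26, Jak1 at 0.09 and Pim2 at 1.29 (adjusted p = 0.089, edgeR, for Pim2).

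In the 12 other deletion lines, pathway calls against XX Rnf12, which all use the same reference libraries, were counted by gene. Myc and Socs2 were called lower in 9 of 12 lines each, Klf5 in 8, Il6ra in 7 and Klf4 in 6, while Stat2 was called higher in 9. Of all gene and line pairs, 8.33% were called lower and 7.12% higher. The share of all genes called in as many lines was not computed. Klf4 was also called lower in XX Wildtype than in XX Rnf12, so its count depends on the reference. All 12 lines share the name prefix that the reference lacks. The line with most pathway calls was Deletion D, with 6 higher and 9 lower (23.9% of all genes were called there), and it includes Tfcp2l1 at -1.23, Klf5 at -1.13 and Pim2 at 1.66. In Deletion C, 4 were higher and 8 lower (29.9% of all genes). Its lower genes included Bcl3 (-1.44 ± 0.26, adjusted p = 0.00038, edgeR), a NF-kB regulator that STAT3 induces, and Ier3 (-1.02). Stat5a rose there by 1.42 and Jak1 by 0.41. Against the other 11 lines Deletion C was higher in Lif, at 14.4 and 13.2 TPM, by a log2 difference of 1.22 (adjusted p = 0.000199, edgeR), and lower in Stat2 by -1.25 and in Bcl3 by -1.59. Socs3 was lowest in the deletion line with the highest Lif RNA, and a relation between the genes was not tested. In XX Rnf12 replicate 1, Lif was at 13.2 TPM and Socs3 at 65.8 TPM.

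Between the founders, 8 pathway genes were called higher and 8 lower in lines J and I-TEL than in the 10 others (31.5% of all genes were called). Gab1 was higher by 1.07 and Fos, an immediate early gene, by 1.25, while Klf4 fell by 0.54 on the log2 scale and Mcl1, a survival gene, by 0.31. Il6ra, the IL-6 receptor gene, was higher by 1.20. Lif, Jak1 and Pim2 were not called (log2 differences -0.10, 0.06 and -0.30).

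The members did not vary as a block over the 12 deletion lines. Of the 21 pairs, the strongest positive Pearson correlation of line means was 0.72 for Pim1 with Pim3, which fell to 0.32 without Deletions I-TEL and J. Lifr and Stat3 were at 0.63, and Lifr and Pim1 at -0.59. Socs3 and Stat3 were at -0.14. These values describe 12 lines that share a name prefix and, for 10 of them, a founder. Of 9840 protein-coding autosomal genes searched, the pattern most like that of Lifr was Abcd3 (r = 0.95), of Il6st Clptm1l (0.89), of Stat3 Wdr70 (0.94), of Pim1 Tbc1d16 (0.95), of Pim3 Sgsm1 (0.97) and of Gbx2 Mettl18 (0.95), which lies on chromosome 1 as Gbx2 does. For Socs3 it was Engase (0.93), which fell to 0.56 without Deletions C and K, and Aldoa (0.91), which fell to -0.16 without them. Each is the highest r of 9840 genes over 12 means, so a high value says nothing by itself of shared control. Over all 30 libraries r was 0.075 for Abcd3, 0.51 for Clptm1l, 0.34 for Wdr70 and -0.14 for Tbc1d16. It was 0.78 for Sgsm1, 0.34 for Mettl18, 0.78 for Engase and 0.53 for Aldoa, each with its member.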

How the data were processed

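The deposited table holds counts of all reads, of reads assigned to 129 and of reads assigned to Cast for each of 30 libraries (90 columns), without normalization. The submitters' processing notes name Trim Galore 0.6.7, HISAT2 2.2.1, SAMtools 1.10 and HTSeq 0.12.4 on mm10, while the study's methods name SNPsplit for the alleles and featureCounts for counting, reverse-stranded, on Ensembl 98 exons. The methods also describe mapping to an mm10 genome masked at the 129 and Cast differences. Which counter made the deposited counts is not settled. The reads were 50 bases, single for XO and paired for the other libraries, and a library held 8816184 to 21181405 counts.

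Identifiers were matched to GENCODE M21 (55240 of 55421 genes, the rest with at most 0.004% of a library's counts). TPM were counts divided by the union exon length of each gene and scaled to a common total. Genes with 10 or more counts in 2 or more libraries (18316) were tested with edgeR 4.0.16 (quasi-likelihood, R 4.3.3), 1 term per condition (17 conditions), TMM factors from autosomal genes, Benjamini-Hochberg adjustment over all genes tested. SE is the log2 fold change divided by the square root of F. The procedure was tested on simulated data. Every member is named. Of the other pathway genes Lif, Jak1 and Pim2 are named, and up to 3 called genes per direction and comparison by lowest adjusted p. Socs2, Klf5, Klf4, Cish and others named beyond this were chosen after their values were seen. The members and lists were chosen with earlier results of these data known. Alternatives were DESeq2, other size factors, no filter, a TPM filter, autosomal genes, a shared name prefix, only the groups compared, a replicate block, each library left out and, added after seeing the data, XX Wildtype as the reference for XO. No library was left out of the main fit, and no copy-number correction was made.

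Replicate numbers were checked for pairing by the correlation of deviations from group means. It ran from -0.28 to 0.61 over 78 pairs of groups, with a median of 0.0091 and 9 above 0.1, so the numbers were not treated as pairs in the fit. The highest value, 0.61, was that of XX Wildtype with XX Rnf12. A pairing by number may thus exist between these groups, and their comparison was fitted without it.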

Additional observations from a re-analysis of the deposited data

Results flagged for a closer look

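Pim1 differed between the XO lines, by a log2 difference of -0.73 (X129OCast minus XCastO129) in a direct test of the difference. The 2 XCastO129 libraries were at 69.8 and 129 TPM. The XO lines differ in Rlim level as well as in the X kept.

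Each of the 7 genes differed among the 12 deletion lines of 1 name prefix in the edgeR F test across all lines. The adjusted p was 5.609e-06 for Pim3, 0.000295 for Socs3, 0.000976 for Il6st, 0.00122 for Stat3, 0.00168 for Lifr, 0.00302 for Gbx2 and 0.00567 for Pim1. Of all genes tested, 44.9% passed the same test. With 1 clone per line the count fell to 1 or 3 of the 7.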

How the results depend on the processing

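Of 1044 values recomputed under an alternative, 893 kept their direction and their side of the threshold. The rise of Lifr, Stat3 and Socs3 in both XO lines, the fall of Pim1 in X129OCast and the Deletion C fall of Socs3 held in all alternatives run for them. Depth limits Gbx2 most, with 19 counts in its lowest library. Where a count changed, the cause was not tested.

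With no filter on low counts, the members called were 2 of 7 in XX Wildtype against XX Rnf12 (1 in the fit reported), 2 between the XO lines (1) and 1 in Deletion E (0), and the pairs of member and line were 37 against XX Rnf12 (22) and 28 against the other 11 lines (17). On libraries of 1 name prefix or on only the groups compared, the count was 0 in XX Wildtype against XX Rnf12 and 0 between the XO lines, and on only the groups compared it was 3 in XCastO129 (6). Leaving out 1 library gave 0 to 1 in XX Wildtype, 5 in XCastO129, 4 to 5 in X129OCast, 0 to 1 between the XO lines, 0 in Deletion E and 10 to 23 pairs against XX Rnf12 (10 without XX Rnf12 replicate 1). Leaving out clone 1 or clone 2 of all 8 lines with 2 clones in the set gave 11 and 14 pairs against XX Rnf12, 5 and 6 pairs against the other 11 lines, 1 and 3 members in the F test among lines and 2 and 2 between founders (at most 5 with single libraries left out).

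The replicate block changed no call of an XO comparison. Under it 25 pairs were called against XX Rnf12 and 20 against the other 11 lines, and the numbers were not treated as pairs. The pair of groups with the highest correlation by number was XX Wildtype with XX Rnf12 (0.61), whose replicates 1 also both had more feeder marker RNA (259.8 and 313 TPM, against 94.7 and 97.5 TPM in replicates 2). Whether those libraries share a batch was not tested. Under the block Gbx2 was still the 1 member called between these XX groups. The block is 1 term shared by all conditions, so it cannot take up a pairing held by the XX groups alone. Such a pairing was not modelled.

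Small differences that were not called turned sign under some settings. Their range with libraries left out was -0.0748 to 0.186 for Lifr, -0.121 to 0.106 for Stat3 and -0.0079 to 0.379 for Socs3 in XX Wildtype, -0.614 to 0.198 for Gbx2 in X129OCast, -0.258 to 0.358 for Lifr, -0.560 to 0.0879 for Socs3 and -0.0528 to 0.124 for Pim3 between the XO lines, -0.0384 to 0.0270 for Il6st and -0.243 to 0.109 for Gbx2 in Deletion E, and -0.107 to 0.0628 for Gbx2 between founders. Stat3 in XX Wildtype was 0.0002 with DESeq2 and 0.0153 with a TPM filter, Il6st in Deletion E was 0.0175 with a TPM filter, Gbx2 between founders was 0.0515 under the replicate block and 0.0497 without Deletion I-TEL replicate 2, and Gbx2 in X129OCast was 1.33 against XX Wildtype.

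Over all genes, the calls in XX Wildtype against XX Rnf12 were 504, 940 with no filter, 2 within 1 name prefix and 1 in a fit of these groups. For XCastO129 they were 6361, and 1784 in a fit of these groups, and between the XO lines 1067 and 48. For Deletion E they were 107, and 187 with DESeq2, 656 with no filter, 3 on autosomal genes, 20 within 1 name prefix and 0 in a fit of these groups, where 1758 genes had an unadjusted p under 0.05.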
